A study of Mus musculus with 10 samples.

Results

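Of 23473 probes on the mouse chip, 167 were bright in mouse embryonic fibroblasts (MEF) and at least 4-fold dimmer in heart and in each of 6 preparations of induced cardiomyocyte-like cells (iCM). They were chosen on the intensities of the authors' value table, after empty cells and values under 25 had been set here to 25, a floor equal to the median of every array. With that floor a member needs at least 100 in MEF, and the 167 members are 29.2% of the 572 probes at least 4-fold above heart in MEF. The members' values in MEF, heart and these 6 iCM arrays were used to choose them, so their levels, and their distance from MEF, are a description without a test. The differences among the 6 iCM arrays were not part of the rule, but the rule held all 6 at least 4-fold below MEF. Tests among them are therefore not fully independent of the choice of members, and counts of members set beside shares of all probes describe the members.

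Each array held 1 sample, 10 in all. The 8 iCM samples were GFP-positive cells sorted with a reporter driven by the α-MHC promoter, which is active in cardiac muscle, so they are selected cells and not the whole culture. They started as MEF given GMT (Gata4, Mef2c and Tbx5) by pMx retrovirus, with or without a synthetic miR-133a mimic. In the first round GMT/miR-133 and GMT cells were each sorted at days 3, 7 and 18, and every combination had a single array. The later round added 1 day 7 array of GMT/miR-133/Snai1 cells and a second day 7 array of GMT/miR-133 cells. The title and treatment of that second array name miR-133 while its description names GMT alone. The controls were untreated heart tissue and untreated MEF. The labels used here give neither the strain nor the age of the mice, and no pooling of animals.

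Fibroblasts build and remodel connective tissue and carry a gene program of matrix proteins, matrix enzymes and mesenchymal regulators. In direct conversion toward heart muscle, loss of that program is followed as a change separate from the gain of muscle genes. Snai1 is a transcription factor that promotes the mesenchymal state, and miR-133 is a microRNA abundant in heart and skeletal muscle. The files pair no probe with a gene, so none of the members can be named, and whether they are fibroblast genes was not checked against markers. "Fibroblast-high" therefore means only brighter in MEF than in heart. In RNA from sorted cells or whole tissue, fewer cells of a type and less RNA per cell cannot be told apart.

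The day labels of the value table need care. Its columns for days 3 and 7 hold the light of scanner files that carry the opposite day but the same arm, with a Pearson's r across probes of 0.99999 for each of these 4 columns and 0.986 for the next best file. Values below carry the day of the value table's column. The choice of members, the comparison of the arms and the comparison of day 18 with the mean of both earlier days do not change if the days are exchanged. The pair labelled day 3 in the table and day 7 in the scanner files was scanned in a session of its own, MEF, heart and the other first-round arrays in another, and the later round apart from both. Of all probes, 77.8% to 87.7% were brighter than the 95th percentile of the blank spots of their array. Because the number of arrays is small, it limits the precision of every value.

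The members' median was 25 on the GMT/miR-133 arrays of days 3, 7 and 18, where 108, 128 and 104 of 167 lay at the floor. On the GMT arrays of days 3, 7 and 18 the median was 25, 25 and 28.3, with 101, 118 and 74 at the floor. In heart it was 25, with 86 at the floor. In MEF the members ranged from 100.2 to 17443, with a median of 340.9 and quartiles of 193.2 and 750.5. MEF stood above heart and the 6 first-round iCM arrays at all members, as the rule requires, and among these iCM arrays day 18 GMT held the fewest members at the floor. As a share of the MEF value, the median member had 10.1%, 9.27% and 9.90% with GMT/miR-133 and 12.0%, 9.92% and 12.2% with GMT at days 3, 7 and 18, and 11.5% in heart, where floored values count as 25. The floor is a median and not a detection limit: 141 to 165 members per first-round iCM array and 162 in heart still had a spot brighter than the 95th percentile of blank spots.

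The members fell into patterns by where any signal above the floor was left. At 61 members (36.5%) all 6 iCM arrays lay at the floor. These members had a median of 189.3 in MEF, and 47 of them were at the floor in heart too. The highest of them in MEF was M200005788, at the floor on all 8 iCM arrays, 108.8 in heart and 1108 in MEF, so it was at least 44.3-fold lower in iCM than in MEF. At 31 members (18.6%) all 6 iCM arrays stayed above the floor, and these were brighter in MEF, with a median of 1323. At an equal share of MEF, a probe dimmer in MEF reaches the fixed floor first. The patterns therefore depend on brightness in MEF and do not rank how completely the members were lost. A further 18 (10.8%) exceeded the floor at day 18 only, in both arms, 1 exceeded it at days 3 and 7 only, and 56 (33.5%) had other mixtures.

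Among the 120 members with any of these 7 arrays above the floor, the brightest array other than MEF was day 18 GMT for 50, heart for 38 and day 3 GMT for 25. A GMT/miR-133 array was the brightest for 6 of them. Heart lay below all 6 iCM arrays at 10 members and above all 6 at 38. By position, members were found in all 24 blocks of the chip, with 3 to 12 in each.

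Single members show how unequal the loss was. M200001767, the brightest in MEF, read 1486, 160.7 and 205.9 with GMT/miR-133 at days 3, 7 and 18, 3104, 504.1 and 446.0 with GMT, 1924 in heart and 17443 in MEF. M200000992 read 1465, 109.1 and 262.5 with GMT/miR-133, 2529, 360.5 and 572.5 with GMT, 922.5 in heart and 11084 in MEF. Both were brightest in the day 3 columns among iCM arrays and lower with GMT/miR-133 than with GMT at each day.

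M200001169 went lower. It read 51.9, 25 and 115.2 with GMT/miR-133, 35.1, 25 and 203.1 with GMT, 642.4 in heart and 8705 in MEF. At the day 7 columns it was at least 348-fold below MEF, and it was below heart on all 6 arrays. M200009370 shows the other order: it read 170.3, 233.2 and 568.8 with GMT/miR-133, 407.2, 242.0 and 577.5 with GMT, 36.4 in heart and 5507 in MEF. Every iCM array was above heart at this probe, and the 2 day 18 arrays were the highest.

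M200004448 read 228.6, 340.8 and 268.2 with GMT/miR-133, 782.9, 623.2 and 492.5 with GMT, 452.1 in heart and 4583 in MEF. All 3 GMT/miR-133 arrays were below all 3 GMT arrays there. M300000112 read 169.7, 25 and 37.1 with GMT/miR-133, 402.8, 40.0 and 85.6 with GMT, 60.1 in heart and 3028 in MEF, and was lower with GMT/miR-133 at each day. M200001793 read 332.7, 315.9 and 256.9 with GMT/miR-133, 331.4, 292.6 and 250.5 with GMT, 122.0 in heart and 2949 in MEF. Its arms overlapped, and it was the most even of these bright members across iCM arrays. M400000367 read 25, 25 and 765.9 with GMT/miR-133, 25, 25 and 1058 with GMT, 146.9 in heart and 6671 in MEF, so only the day 18 arrays exceeded the floor, although its spot was brighter than the 95th percentile of blanks on all 6 of these iCM arrays.

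At the edge of the rule the ratio of MEF to the highest of heart and the 6 iCM arrays was 4.01 at the closest members, M200014953 (100.2 in MEF, the floor in heart and on the 6 iCM arrays) and M400000030. M200008526 and M300013059 were like the first, at 101.6 and 102.1 in MEF. M400010838 and M200004869 stood at 4.03 and 4.09 with all 6 iCM arrays above the floor. Just outside were M200012847 at 3.98, M300012194 at 3.97, M300007786 at 3.96 and M400007140 at 3.96. The median ratio was 6.82, the highest was 33.3 at M200001101, and 34 members were at least 10-fold apart on all 7 arrays. As background, the rule selected 0.711% of all probes, and nothing is read from that share.

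The arrays of the later round took no part in choosing the members, although they are set against the same MEF array that did. On the Snai1 array 160 members were at least 4-fold below MEF, and on the second day 7 array 165 were. Of the 5639 probes with at least 100 in MEF, 6.56% and 7.13% were that far below MEF on the same arrays. Of the 405 other probes at least 4-fold above heart in MEF (the other MEF-high probes), 75 (18.5%) and 86 (21.2%) were. The members' median was 25 on both, with 111 at the floor on the Snai1 array and 137 on the second day 7 array. Of 165 probes at least 4-fold above heart in MEF that were less than 2-fold below MEF on all 6 first-round arrays, or above it, 5 were 4-fold below MEF on the Snai1 array and 0 on the second array. These comparisons have 1 array a side and no test.

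Of the 7 members less than 4-fold below MEF on the Snai1 array, M400011429 was the highest relative to MEF. It read 288.8 on the Snai1 array, 59.0 on the second day 7 array, 37.9 to 52.9 on the 6 first-round iCM arrays, the floor in heart and 252.5 in MEF. M300007075 read 1164 with Snai1 and 430.1 on the second array, against 2632 in MEF, and M400011244 read 300.2 and 182.6, against 877.9 in MEF. M300007271 and M200004869 read 70.9 and 133.2 with Snai1, against 233.8 and 445.4 in MEF. M200014953, at the edge of the rule, read 40.7 with Snai1 and 26.6 on the second array.

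Setting the GMT/miR-133 arm against the GMT arm asks whether the microRNA takes these probes further down. This was tested on the scanner files with limma, with arm and day as terms over 19932 probes detected on at least 3 of the 6 first-round arrays, and p-values adjusted by Benjamini-Hochberg. Each arm has 1 array per day, and nothing in the labels says that the days came from separate cultures, so what each p-value weighs is how much the arm difference varied from day to day. No probe passed at an adjusted p of 0.05 in either direction, 0.0% of the chip, and so none of the 157 tested members did.

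Below that threshold the members leaned one way. At an unadjusted p under 0.05, 50 tested members were lower with GMT/miR-133 and 1 was higher, compared with 4.88% and 4.75% of all tested probes. The filter passed probes by their iCM signal. With no filter, so that all 167 members enter, 45 were lower and 1 higher, compared with 4.61% and 4.52% of 23473 probes. The median difference over the 167 members was −0.11 on the log2 scale, and 0.0020 over all probes. Calls depended on the variance and background model: 20 members were lower and 1 was higher at an adjusted p under 0.05 with a trended, robust variance in limma, compared with 0.502% and 0.306% of probes. Without background subtraction 15 were lower and 0 higher, compared with 0.266% and 0.13%, and with an offset of 16 the counts were 16 and 0, compared with 0.326% and 0.186%. The lean was smaller elsewhere: at an unadjusted p under 0.05, 15 were lower and 2 higher with local background, compared with 3.25% and 2.83%, and 18 and 0 in the value table, compared with 3.77% and 1.65%. Without the day 18 pair the median over the tested members was −0.04, with 102 below 0 and 55 above, compared with −0.12, 138 and 19 when all pairs entered.

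By the value table, 36 members were lower with GMT/miR-133 at all 3 days and 1 was higher, compared with 9.29% and 5.02% of all probes. At 61 members both arms were at the floor throughout and could show no difference. At 14 members all 3 GMT/miR-133 arrays were below all 3 GMT arrays, and at 0 they were above, compared with 1.84% and 0.937% of all probes. Of the 31 members above the floor on all 6 arrays, 23 were lower at all 3 days, with medians of −0.58, −0.42 and −0.54 (log2) at days 3, 7 and 18. Counted the same way over the 3 days, 178 of the 405 other MEF-high probes lay on the lower side and 28 on the higher. Their medians were −0.31, −0.13 and −0.18, and 0 of them had equal arms throughout. A lean to lower values with GMT/miR-133 was thus not particular to the members. Of the 165 MEF-high probes less than 2-fold below MEF, 52 were lower at all 3 days and 12 were higher, with medians of −0.25, −0.05 and −0.08. The difference between these groups of probes was not tested.

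The members furthest down with miR-133 were M200001767, at −1.12 ± 0.103 (log2, SE; limma, adjusted p = 0.202), M200004448 at −1.03 ± 0.170 (limma, adjusted p = 0.278) and M200000992 at −1.01 ± 0.133 (limma, adjusted p = 0.217). M200006538 and M300000112 followed, at −0.89 and −0.77 (limma, adjusted p of 0.357 and 0.224). M200006538 read 89.4, 25 and 30.7 with GMT/miR-133 and 152.9, 56.8 and 130.7 with GMT at days 3, 7 and 18. It was lower with GMT/miR-133 at each day, though its day 3 value overlapped the GMT range. These sizes moved with the processing. As an alternative, the second day 7 array replaced the GMT/miR-133 array that the scanner files label day 7. That array is the value table's day 3 column, and the second array was paired with the table's day 3 GMT array. This setting, unlike the main comparison, therefore depends on the day labels. In it M200001767, M200000992 and M300000112 were at −2.30, −2.23 and −1.42, and M200004448 and M200006538 at −1.57 and −1.40. With local background M200004448 and M200006538 were at −0.45 and −0.49, and without the day 18 pair M200006538 was at −0.59. At the other end stood M400004146, at 0.33 ± 0.060 (limma, adjusted p = 0.304), which read 35.6, 33.1 and 25 with GMT/miR-133 and the floor with GMT at each day. M200002094, M200014162, M200003779 and M200001793 were at 0.07 to 0.13, none of them called, and M200001793 and M200014162 turned to −0.20 and −0.053 with local background.

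Day 18 was compared with the mean of days 3 and 7 in the same fit, to ask whether the members stayed down. No day has a repeated array, so its arms serve in place of repeats. In this fit 50 members were higher at day 18 and 12 were lower (limma, adjusted p under 0.05), compared with 4.62% and 4.02% of all tested probes. With no filter, 43 and 8 of the 167 members were called, compared with 2.77% and 2.06%, and the median difference was 0.19 over the members and −0.0060 over all probes (log2). At an unadjusted p under 0.05, 74 tested members were higher and 19 lower, compared with 13.5% and 14.4% of probes, and with no filter 81 and 20 were, compared with 12.1% and 13.1%. One of the earlier pairs was scanned apart from day 18. Within the shared session, 7 members were called higher and 0 lower, compared with 0.161% and 0.01% of probes, and 79 were higher and 9 lower at an unadjusted p under 0.05, compared with 9.08% and 9.1%. When day 18 was set against the pair scanned apart alone, 27 were higher and 15 lower, compared with 4.36% and 4.24% of probes. By limma on the floored value table, 0 members were called in either direction, compared with 0.0351% and 0.0753% of probes. There 28 were higher and 13 lower at an unadjusted p under 0.05, compared with 4.9% and 12.1%. With local background 0 members were called, compared with 0.0% of probes, and 34 were higher and 10 lower at an unadjusted p under 0.05, compared with 5.9% and 6.88%.

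The members called higher were led by M400000367, at 4.66 ± 0.082 (log2, SE; limma, adjusted p = 0.00194), whose value was 4.63 within the shared session. M200000131 read 25, 25 and 111.7 with GMT/miR-133 and 25, 25 and 170.9 with GMT at days 3, 7 and 18, and 1895 in MEF. It rose by 2.37 ± 0.105 (limma, adjusted p = 0.00549) and by 2.37 within the shared session. M200004470, M200000979 and M400000771 rose by 2.09, 2.01 and 1.80 (limma, adjusted p of 0.0131, 0.00784 and 0.0131). Within the shared session they stood at 2.12, 2.02 and 1.75, and of these 3 only M200000979 was still called. In the value table, where none was called, the 5 differences were 1.86 to 5.17, and with local background they were 1.09 to 4.10. As the rule requires, these 5 members were at least 4-fold below MEF at day 18 too. They had 4.28% to 11.5% of the MEF value with GMT/miR-133 and 7.53% to 15.9% with GMT. The day 18 value was lower with GMT/miR-133 than with GMT at each, as at 91 of the 93 members above the floor on the day 18 GMT array.

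The 18 members at the floor in all 4 earlier columns and above it in both day 18 columns form the group where this is most visible. Their day 18 values were 25.3 to 765.9 with GMT/miR-133 and 30.9 to 1058 with GMT, against 158.9 to 6671 in MEF. As a share of MEF they had a median of 8.37% with GMT/miR-133 and 12.2% with GMT. Their quartiles were 5.83% and 9.87% with GMT/miR-133 and 9.16% and 13.7% with GMT. The full ranges were 1.14% to 21.9% and 1.85% to 24.9%, and the rule kept each value at least 4-fold below MEF. Over all 167 members the day 18 medians were 9.90% and 12.2%, so shares of this size were not particular to the 18. All 18 were lower with GMT/miR-133, at a median ratio to GMT of 0.697. This was not particular to them: of the 93 members above the floor on the day 18 GMT array, 91 were lower, at a median ratio of 0.702. At day 18, 274 of the 405 other MEF-high probes and 5700 of all 23473 probes were lower with GMT/miR-133. All 18 were at the floor on the second day 7 array and 17 on the Snai1 array, where 137 and 111 of the 167 members were. The 18 had been picked for lying at the floor on the first-round day 7 arrays. In heart, 15 were lower than on both day 18 arrays.

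Of the 18, 17 were called higher at day 18 and 6 within the shared session. The group was formed from the same values, so these counts describe it and are no test. The pattern was found at 0.366% of all probes, 10.8% of members and 4 of the 405 other MEF-high probes. Of the 405, a probe with the pattern needs a day 18 array less than 4-fold below MEF, or it would be a member. By definition, the 165 less than 2-fold below MEF lay above the floor on all 6 iCM arrays and could not show the pattern. The floor limits which members can show the pattern. Whether remaining unconverted fibroblasts or another cell type among the sorted cells moved with these probes was not tested, because no marker can be named.

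None of the 12 members called lower at day 18 was called within the shared session, where fewer arrays enter. M200001767 was at −1.22 ± 0.110 (log2, SE; limma, adjusted p = 0.0146) and at 0.14 within the shared session. M200002538, M400010846, M300008194 and M300005888 were at −0.91, −0.86, −0.82 and −0.70 (limma, adjusted p of 0.0183, 0.0151, 0.0127 and 0.0209), and at −0.10, −0.67, −0.22 and −0.73 within the shared session. For the last of these the size was kept but the call was lost when either earlier pair was left out. M300005888 was the only member above the floor at days 3 and 7 and at the floor at day 18: it read 41.3, 35.5 and 25 with GMT/miR-133 and 35.0, 45.3 and 25 with GMT, against 819.5 in MEF.

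Snai1 was added to GMT/miR-133 in the later round, and its array was set against the second day 7 array of GMT/miR-133 cells, which shared its scan session. With Snai1, 23 of the 167 members were higher by 2-fold or more and 0 were lower by as much, compared with 0.89% and 3.12% of all probes. In all, 53 were higher, 4 were lower and 110 lay at the floor on both arrays, compared with 15.3% of all probes higher and 30.7% lower. With 137 members at the floor on the second array, few could be lower. Of the 405 other MEF-high probes, 38 were 2-fold higher (9.38%) and 31 lower (7.65%), so 2-fold rises were not particular to the members. Among those 405, the 165 less than 2-fold below MEF in the first round had 3 that were 2-fold higher and 22 lower. The second array had fewer members above the floor than any other. Against the first day 7 GMT/miR-133 column, 19 members were 2-fold higher and 2 lower, compared with 1.4% and 3.48% of probes, and 16 members were 2-fold higher than on both day 7 arrays, compared with 0.558%. Between those day 7 arrays themselves, 0 members were 2-fold higher on the second and 6 were 2-fold lower, compared with 1.47% and 1.5% of probes. The rule held the first day 7 column, but not the Snai1 array, at least 4-fold below MEF, and 128 members were at the floor there, so counts against it lean to higher by the choice of members. Against the day 3 GMT/miR-133 column, whose light comes from the scanner file deposited for day 7, 8 were higher and 5 lower, compared with 0.954% and 2.86%. Of the 405 other MEF-high probes, 40 were 2-fold higher and 51 lower against the first day 7 column, and 26 and 41 against the day 3 column. The control array thus decides the count, and 1 array a side allows no test.

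M200006244 read 217.6 with Snai1 and at or under the floor of 25 on the second array, at least 8.70-fold higher, and 26.1 on the first day 7 array. M200002538 read 166.4 with Snai1 and the floor on both day 7 arrays, at least 6.66-fold higher. M400000752 read 126.1 with Snai1, the floor on the second array and 43.5 on the first. These 3 were above both day 7 arrays, and they stayed well under their MEF values of 987.6, 910.6 and 1368.

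M200001767 read 474.8 with Snai1, 94.4 on the second array and 160.7 on the first. M200004448 read 255.0 with Snai1 and 51.9 on the second array, 4.92-fold higher, but 340.8 on the first, where Snai1 was the lower one. The lowest ratios of Snai1 to the second array were at M200014162, with 98.1 and 167.9, at M200003779, with 26.4 and 41.1, and at M300002790, with 25 and 37.1. None of these reached 2-fold.

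The arrays of the arm comparison and those of the Snai1 comparison do not overlap. Of the 36 members lower with GMT/miR-133 at all 3 days, 31 were higher with Snai1 than on the second array, 1 was lower and 4 were equal. Of all 2180 probes lower with GMT/miR-133 at all 3 days, 44.3% were higher with Snai1 and 52.2% lower. At least 2-fold, 16 members were in both groups, 44.4% of the 36 and 69.6% of the 23 that were 2-fold higher with Snai1. Over all probes the same overlap was 94, which is 4.31% of 2180 and 45.0% of 209, and over the 165 MEF-high probes less than 2-fold below MEF it was 3, or 5.77% of 52 and all 3 of those 2-fold higher with Snai1. A member at the floor on the second array can only be equal or higher with Snai1, and the members' floor on that array therefore limits what this count can show.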

How the data were processed

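Per the file headers, the deposited scanner files give the median intensity of each of 27456 spots (1 colour, Cy5), with no background subtraction or normalization. The value table the authors deposited gives intensity on a linear scale with a median of 25 per array. The steps the authors took to make it are not given in the sources used here. Members, patterns and folds come from that table with a floor of 25. Tests used the scanner files: normexp on 2736 blank spots (offset 50), quantile normalization, log2 values that differ from the deposited intensity by these steps, and limma 3.58.1 under R 4.3.3 (Benjamini-Hochberg at 0.05, 2 residual degrees of freedom). On data simulated with each probe's own spread over 19932 probes, the arm test recovered 22, 38, 48 and 48 of 50 probes changed 1.5-, 2-, 3- and 4-fold and called 9 unchanged ones. The day 18 test recovered 27, 37, 43 and 44 and called 1. The simulated arrays held added changes, and each probe's spread was itself estimated on 2 residual degrees of freedom. These counts check the procedure and do not give the power of the tests on the real arrays. Named members follow a rule of extremes: the 8 highest in MEF, the 6 just inside and 4 just outside the threshold, the 5 highest and 5 lowest arm and day differences, the 5 highest and 3 lowest ratios with Snai1, and up to 6 that were weakest on the later arrays. M200005788 and M200001101 were named after their values were seen. Members, lists and tests were chosen with earlier results of these data known. Gene and marker lists were prepared, but 0 of their genes could be matched to a probe.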

Additional observations from a re-analysis of the deposited data

How the results depend on the processing

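Members by the rule numbered 55 at 8-fold, compared with 167 at 4-fold; the other alternatives to that rule stayed within 1.5 times. From scanner files the rule gave 117 probes, 116 of them members, with normexp, and 157, 147 of them members, without background subtraction. Calls between the arms numbered 0, but 15 lower without background subtraction, 16 lower with an offset of 16, and 20 lower and 1 higher, 21 in all, with a trended, robust variance. With no replicate block, that is without day in the model, they stayed at 0, as they did without any 1 day's pair. Members lower with GMT/miR-133 at all 3 days numbered 36, 18 with a floor of 50 and 73 from the scanner files, where 14.3% of all probes did so, both chosen after seeing the data. Day 18 calls among members numbered 62 (50 higher, 12 lower) and 0 with local background and in the value table. Leaving out 1 earlier pair gave 7 to 27 higher, 0 to 15 lower and 7 to 42 in all. Without the arm term 2 were lower. Members 2-fold higher with Snai1 numbered 23, 12 with a floor of 50, 10 at 3-fold and 8 against the day 3 column; lower ones numbered 0, 2 against the first day 7 array and 5 against the day 3 column. Of 220 values of named members under these alternatives, 172 counted as unchanged in direction and call. Another 31 lost a call, 13 gained one and 4 turned. The 172 include the arm difference of M200002094 in the value table, which was 0.0 with all 6 iCM arrays at the floor and so had no direction. M200001793 turned to −0.20 with local background. It turned to −0.13 when the second day 7 array replaced the GMT/miR-133 array that the scanner files label day 7. M200014162 turned to −0.053 with local background. M200001767 at day 18 also turned, and its value ran between −2.57 and 0.14 when 1 earlier pair was left out. The cause of these changes was not tested.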
